A study of Rattus norvegicus with 18 samples.

Results

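Freshly isolated endothelial cells of the rat lung were compared with freshly isolated endothelial cells of the rat liver. The members were all arrays whose labels name the fresh cells, 5 of lung microvascular endothelial cells (LMEC_0h, arrays 18 to 22) and 5 of liver sinusoidal endothelial cells (LSEC_0h, arrays 13 to 17). They make up 10 of the 18 arrays of the series, whose other arrays hold liver cells kept on collagen for 2 h (LSEC_2h, 4 arrays) or 42 h (LSEC_42h, 4 arrays). Cells of both organs were released with enzymes, enriched on a density gradient and sorted with magnetic beads, and RNA of the fresh groups was taken without culture. Strain, age, genotype and the sorted surface marker are not stated in the labels, and whether each array stands for an animal of its own is not stated either. The p-values therefore reflect variation among these samples alone, part of which may be technical. Both groups are bulk preparations of sorted cells, in which fewer cells of a type and less RNA per cell cannot be told apart.

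Liver sinusoidal endothelium is a fenestrated, discontinuous lining with little basement membrane, and it clears macromolecules and immune complexes from portal blood by rapid endocytosis. Lung capillary endothelium is continuous and rests on a basement membrane shared with the alveolar epithelium. It is known for converting angiotensin, for removing prostaglandins and serotonin from the blood, and in the mouse for capillary cells of differing kinds, aerocytes and general capillary cells.

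Values are log2 expression as deposited, 1 probe set per gene, for 11018 genes. Array medians lay between 7.14 and 7.19, and the Pearson correlation of an array with the least similar array of its own group was 0.957 to 0.967 in LMEC_0h and 0.97 to 0.987 in LSEC_0h, while no array reached above 0.85 with the other group. As a sign of RNA quality, the 3′ Actb control exceeded the 5′ control by 1.04 ± 0.16 in the lung arrays and 1.02 ± 0.15 in the liver arrays (SD over 5 arrays, two-sided exact permutation p = 0.476). Bacterial poly-A control probe sets, which were not in these samples, had group means of up to 6.21 in LMEC_0h and 6.26 in LSEC_0h. A gene at or below that value is called at background here, and its fold is given as "at least", computed against that value. Precision is limited by the number of arrays.

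Both groups carried endothelial transcripts. The 20 measured pan-endothelial markers averaged 10.36 to 10.73 per array in LMEC_0h and 10.75 to 10.92 in LSEC_0h, and 4 were higher and 5 lower in LMEC_0h, with 2 higher when LSEC_0h array 15 or 17 was left out. Each group also carried transcripts of its organ's other cells. Of 15 lung epithelial markers 14 were higher in LMEC_0h, with means per array of 9.26 to 10.72 against 6.5 to 6.57, and Sftpc, Sftpa1, Sftpb, Scgb1a1, Slc34a2, Lamp3, Cldn18 and Nkx2-1 were at background in LSEC_0h. Of 25 fibroblast and stellate cell markers 20 were higher in LMEC_0h, with means of 7.88 to 8.56 against 6.47 to 6.83, while Reln, Hgf and Lrat, which stellate cells express, were lower. Smooth muscle and pericyte markers were higher in LMEC_0h in 10 of 13, with means of 7.18 to 8.17 against 6.69 to 6.82. Of 27 hepatocyte markers 24 were lower in LMEC_0h, with means of 6.42 to 6.52 against 7.68 to 9.14, and Alb and Ttr were at background in LMEC_0h. Kupffer cell and macrophage markers were lower in LMEC_0h in 7 of 12 and higher in 1, with means of 7.08 to 8.29 against 7.82 to 10.23, and 2 were higher without LSEC_0h array 15 and 0 without LMEC_0h array 20 or 22 or LSEC_0h array 14, 16 or 17. Array 20 was the highest of the lung arrays for epithelial, macrophage, granulocyte, mesothelial and cholangiocyte markers, and array 15 the highest of the liver arrays for hepatocyte and Kupffer cell markers. The plot of marker lists by array draws both cases, without the mesothelial and cholangiocyte markers.

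**Figure D1:**
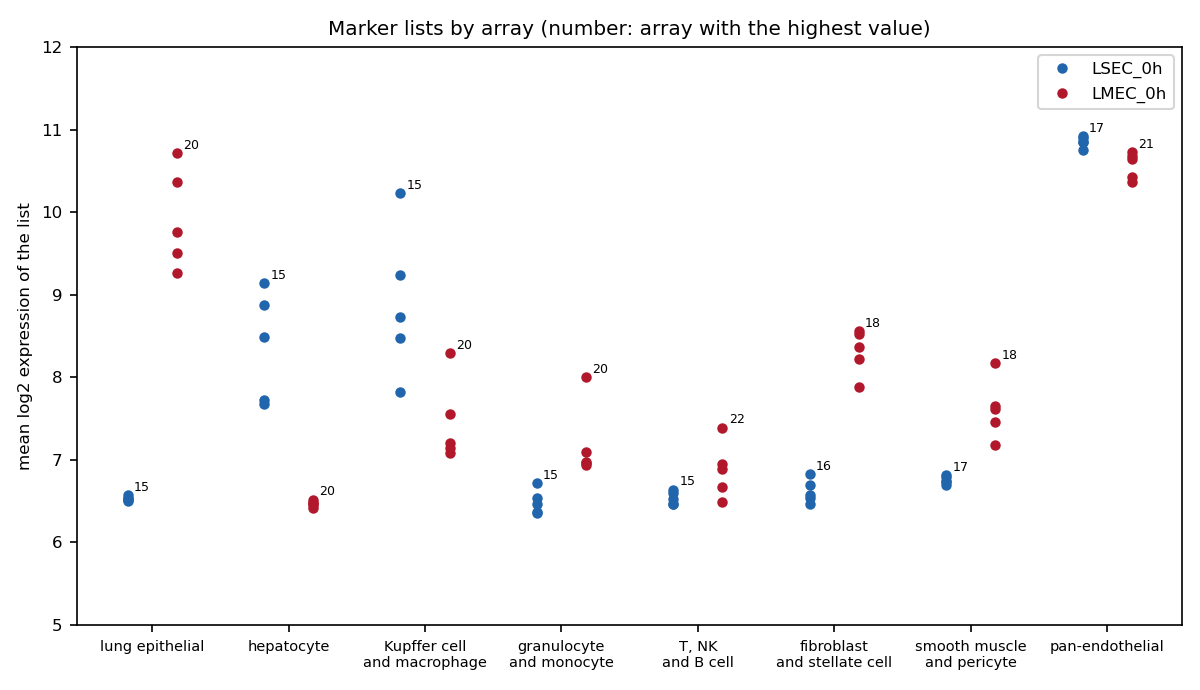
Mean log2 expression of 8 marker lists (y axis) in each of the 10 arrays, with LSEC_0h in blue and LMEC_0h in red and the number of the array with the highest value beside it. Epithelial and fibroblast markers stood higher in every lung array, hepatocyte markers higher in every liver array, and pan-endothelial markers lay between 10.36 and 10.92 in all of them.

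The comparison asked which transcripts differ between the endothelium of both organs. At an adjusted p under 0.05 in limma, 5444 of the 11018 genes were called, which is 49.4%. Of these 2234 (20.3%) were higher in LMEC_0h and 3210 (29.1%) lower, and the median log2 difference of all genes, LMEC_0h minus LSEC_0h, was -0.04. A difference of at least 2-fold was reached by 649 genes in the lung direction and 439 in the liver direction, which is 5.89% and 3.98% of the genes, together 9.87%. Large differences were more often toward the lung, with 246 against 120 genes at 4-fold or more and 34 against 8 at 16-fold or more. The 5 arrays of a group did not overlap those of the other in 38.7% of all genes, and both group means were at background in 15.2%. Counts of list members are to be read against these shares, and no list was tested as a set. Leaving out any single array gave 4877 to 5542 called genes.

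**Figure D2:**
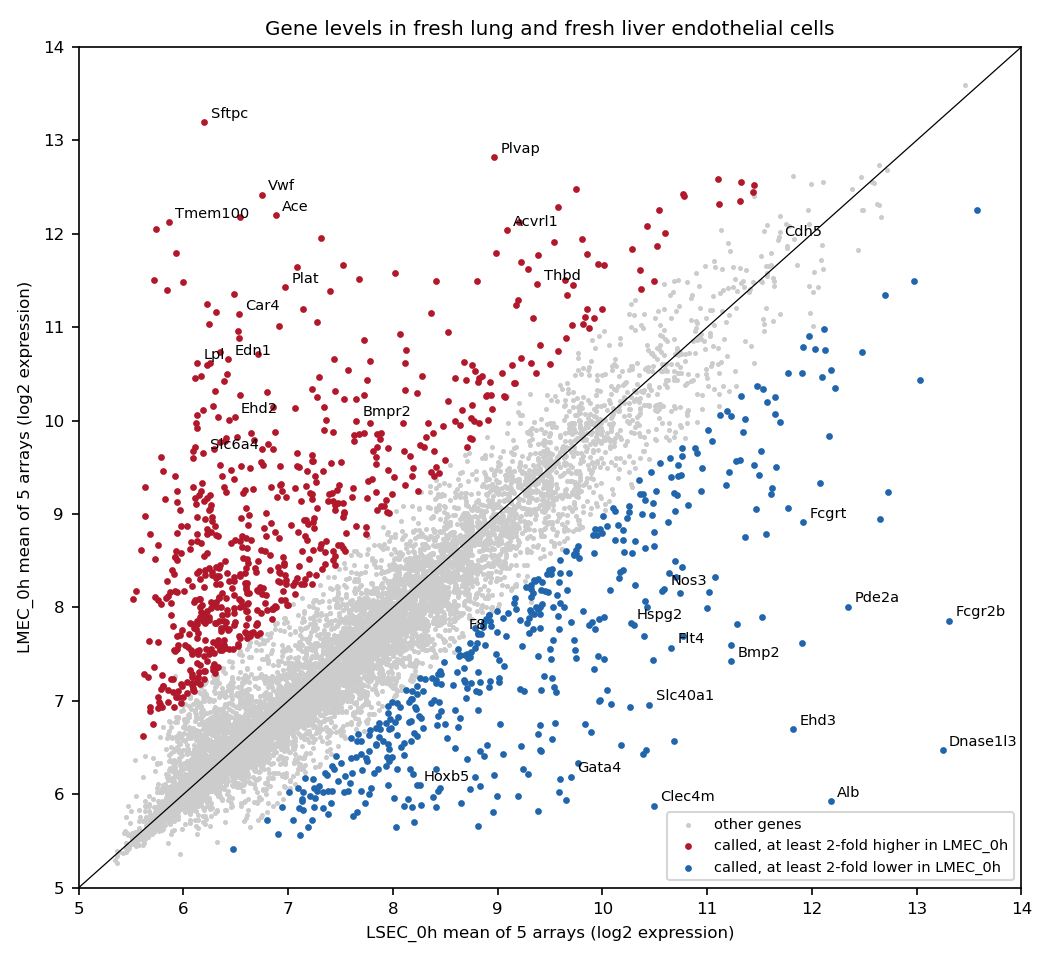
Mean log2 expression of each gene in LSEC_0h (x axis) and LMEC_0h (y axis), 5 arrays each, with called genes at least 2-fold apart in colour and all other genes in grey. The 649 red genes lie above the line of equal level and the 439 blue genes below it.

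The genes with the largest differences toward the liver included proteins of uptake, adhesion and metal transport beside the scavenger genes. Clec1b (Entrez gene 500336), a C-type lectin known as a podoplanin receptor on platelets, read 10.41, 10.22, 9.94, 10.36 and 9.95 in LSEC_0h arrays 13 to 17 and 6.39, 6.57, 6.46, 6.68 and 6.55 in LMEC_0h arrays 18 to 22. Its levels were tight in both groups and far apart, with 12.5-fold more in the liver cells (limma adjusted p = 6.36e-10, log2 SE 0.11). Slc39a8 (Entrez gene 295455), a zinc and manganese importer, read 11.39, 11.32, 11.01, 11.28 and 11.14 in the liver arrays and 7.33, 7.22, 9.02, 7.18 and 7.26 in the lung arrays. Lung array 20, with its high epithelial and macrophage markers, stood above the other lung arrays, and the difference was 12.4-fold (limma adjusted p = 3.12e-06). Cd200r1 (Entrez gene 64357), the inhibitory receptor for Cd200, was at background in LMEC_0h at 5.94 ± 0.12 against 9.65 ± 0.32 in LSEC_0h, at least 10.9-fold higher in the liver cells. Its ligand Cd200 went the other way, as given with the adhesion genes. Other genes among the 25 largest toward the liver were Ccdc80, a matrix protein (13-fold), Ap1b1, a subunit of the clathrin adaptor AP-1 (12.3-fold), Pla2r1, a phospholipase receptor of the mannose receptor family (at least 9.09-fold), the interferon-induced Ifitm1 (11.3-fold), Emilin1, an elastic fibre protein (11.1-fold), and the protease Bace2 (10-fold). Gc, the vitamin D binding protein made by hepatocytes, was at least 10.4-fold higher and spread from 8.64 to 10.71 over the liver arrays, with the highest value in array 15. Clec4f, a Kupffer cell lectin, was 17.2-fold higher and spread from 9.43 to 12.15, again with array 15 at the top and array 17 at the bottom.

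Toward the lung, many of the 25 largest differences were genes of other lung cells: Sftpc, Sftpa1, Sftpb, Scgb1a1 and Hopx are epithelial markers, and Mfap4 and Mgp fibroblast markers. Scgb1a1, the club cell secretory protein, was at least 31.8-fold higher in LMEC_0h and Hopx, a homeodomain protein of alveolar type I cells, 25.2-fold. Among the rest stood Fmo1, a drug-oxidising monooxygenase (29.4-fold), the tubulin-binding Tppp3 (28.9-fold), S100a6, a calcium-binding protein (23.8-fold), Anxa1, an anti-inflammatory annexin (21.7-fold), Prom1, a protein of membrane protrusions (at least 20.6-fold), Scn3b, a sodium channel subunit (20.7-fold) and Emp2, a membrane protein of alveolar cells (at least 18.4-fold). The rule that chose these genes required arrays that did not overlap.

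Since the transcription factor Gata4 was among the 25 largest differences toward the liver, the 250 bases before the annotated start of each gene were searched for the GATA core AGATAA on both strands. These letters, and not shown binding, are what is counted. Of 9060 tested genes with a promoter in RefSeq (assembly GRCr8), 6.67% held it. It was present in 5 of the 17 promoters on hand for the 25 largest differences toward the liver (29.4%) and in 0 of 15 for those toward the lung. At 4-fold or more the shares were 10.8% of 93 promoters toward the liver and 7.73% of 181 toward the lung. The 5 promoters with the letters belonged to Clec4m, Clec4f, Clec1b, Ccl24 and Slc39a8. Those of 4 of them are shown because they join 3 kinds of protein, lectins, a chemokine and a metal importer, and that of Edn1 is shown as a gene higher in the lung whose promoter held the letters too. Capitals mark AGATAA or its reverse complement TTATCT, and each line reads 5′ to 3′ on the strand of the gene.
Clec4m, chr12:6722396-6722645, minus strand: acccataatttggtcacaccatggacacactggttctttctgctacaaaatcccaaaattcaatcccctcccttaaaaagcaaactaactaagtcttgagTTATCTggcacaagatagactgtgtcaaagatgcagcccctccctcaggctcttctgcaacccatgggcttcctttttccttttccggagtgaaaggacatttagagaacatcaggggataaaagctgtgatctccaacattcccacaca
Clec1b, chr4:164533859-164534108, plus strand: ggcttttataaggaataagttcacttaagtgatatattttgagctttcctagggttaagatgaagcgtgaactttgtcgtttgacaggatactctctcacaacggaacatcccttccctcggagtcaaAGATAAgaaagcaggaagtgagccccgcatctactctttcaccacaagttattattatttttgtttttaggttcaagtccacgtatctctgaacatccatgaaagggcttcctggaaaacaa
Ccl24, chr12:26737173-26737422, plus strand: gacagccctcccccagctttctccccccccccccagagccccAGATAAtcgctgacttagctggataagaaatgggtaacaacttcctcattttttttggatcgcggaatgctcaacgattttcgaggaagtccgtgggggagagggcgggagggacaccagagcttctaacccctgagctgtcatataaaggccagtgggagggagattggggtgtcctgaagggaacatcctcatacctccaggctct
Slc39a8, chr2:226929941-226930190, plus strand: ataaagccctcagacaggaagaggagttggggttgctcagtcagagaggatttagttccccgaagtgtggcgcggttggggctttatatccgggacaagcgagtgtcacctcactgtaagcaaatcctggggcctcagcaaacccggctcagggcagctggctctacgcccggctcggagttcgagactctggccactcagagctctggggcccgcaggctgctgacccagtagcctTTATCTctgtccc
Edn1, chr17:22666688-22666937, minus strand: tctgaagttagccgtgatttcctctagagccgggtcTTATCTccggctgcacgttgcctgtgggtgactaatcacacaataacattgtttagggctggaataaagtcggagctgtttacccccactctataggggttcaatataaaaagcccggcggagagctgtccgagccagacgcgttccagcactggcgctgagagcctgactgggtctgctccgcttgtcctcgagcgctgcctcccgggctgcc
For these genes the differences were at least 19.5-fold (Clec4m), 12.5-fold (Clec1b), 15.5-fold (Ccl24) and 12.4-fold (Slc39a8) toward the liver, and 18.8-fold toward the lung for Edn1. The other motifs were searched in the same way, and none of their letter strings contains another. The ETS letters CCGGAAG stood in 13.1% of all promoters, but in 4.42% and 4.3% of those at least 4-fold higher in lung and liver. The MAF letters TGCTGA stood in 12.7% of all, in 13.8% toward the lung and in 18.3% toward the liver, AP-1 (TGACTCA) in 3.51%, 4.42% and 5.38%, and KLF (CACCC) in 56.8%, 61.9% and 59.1%. SOX letters (AACAAT) stood in 5.39%, 6.08% and 2.15%, and forkhead letters (TGTTTAC) in 2.2%, 2.21% and 3.23%. Among the 25 largest differences, the shares of 17 promoters toward the liver and 15 toward the lung were 5.88% and 13.3% for the MAF letters, 35.3% and 66.7% for KLF, and 0% and 13.3% for AP-1. They were 5.88% and 6.67% for SOX, 0% and 6.67% for forkhead, and 5.88% and 0% for ETS. Within these 25, ETS alone of the other motifs had the higher share toward the liver, held by 1 promoter. At 4-fold or more MAF, AP-1 and forkhead had the higher share toward the liver, and ETS did not. No share was tested. The sets also held genes of other cells, such as the Kupffer cell lectin Clec4f and the hepatocyte marker Pck1, both with the GATA letters. Which cells carried these transcripts was not tested.

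Genes of blood clotting and clot lysis differed nearly throughout: of 17 measured, 11 were higher and 5 lower in LMEC_0h, with a median log2 difference of 0.69. Vwf (Entrez gene 116669), which carries factor VIII and tethers platelets, read 12.66, 12.67, 12.16, 12.5 and 12.13 in the lung arrays and 6.61, 6.59, 6.69, 6.86 and 7.01 in the liver arrays. F8 (Entrez gene 302470), the clotting factor that Vwf carries, read 7.73, 7.94, 7.5, 7.72 and 7.75 in the lung arrays and 8.72, 8.86, 8.45, 8.48 and 8.77 in the liver arrays. The carrier was thus higher in every lung array (51-fold, limma adjusted p = 1.32e-10) and its cargo higher in every liver array (1.9-fold, limma adjusted p = 2.23e-05). Plat, the tissue plasminogen activator, was 22.1-fold higher in LMEC_0h (11.43 ± 0.35 against 6.97 ± 0.18, SD, n = 5 each, limma adjusted p = 2.48e-09). Thbd, thrombomodulin, which turns thrombin toward anticoagulation, was 4.22-fold higher, and Entpd1, which removes ADP from plasma, 3.3-fold. F3, tissue factor, was at least 3.53-fold higher, with lung arrays 19 and 22 at 9.04 and 8.71 and the other lung arrays at 7.25 to 7.84. The thrombin receptor F2r (2.29-fold), the endothelial matrix protein Mmrn2 (2.16-fold) and the vitamin K-dependent ligand Gas6 (1.72-fold) were higher in LSEC_0h, while Mmrn1, the multimerin of platelets and lymphatic endothelium, was at least 4.8-fold higher in LMEC_0h.

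Among 37 genes of vascular tone 20 were higher and 7 lower in LMEC_0h. Edn1 (Entrez gene 24323), the vasoconstrictor endothelin 1, read 10.98, 10.8, 10.58, 11.02 and 9.94 in the lung arrays and 6.28 to 6.55 in the liver arrays. Apln, the peptide apelin, was 7.84-fold higher in LMEC_0h, and its receptor Aplnr at least 5-fold. Npr3, the natriuretic peptide clearance receptor, was at least 3.02-fold higher in LMEC_0h, whereas the guanylyl cyclase receptors Npr1 and Npr2 were lower there. Npr1 read 9.6 to 10.05 in the lung arrays and 11.23 to 11.4 in the liver arrays (2.75-fold, limma adjusted p = 1.43e-07). Nos3, which makes nitric oxide, was 5.26-fold lower in LMEC_0h, but Gch1, which makes its cofactor, was 2.06-fold higher with arrays 19 and 22 the highest of the group at 8.8 and 8.53. The purine receptor P2ry2 was 2.87-fold higher in LMEC_0h, and P2ry1 was at least 3.74-fold higher in LSEC_0h and at background in the lung cells.

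Prostanoid and amine genes split by step. Slco2a1 (Entrez gene 24546), the importer that takes prostaglandins out of blood, read 10.12, 10.66, 9.74, 10.2 and 9.59 in the lung arrays and 5.99 to 6.2 in the liver arrays, at background (at least 14-fold, limma adjusted p = 1.19e-08). Hpgd (Entrez gene 79242), the enzyme that inactivates prostaglandins after import, read 9.85, 9.65, 9.6, 10.76 and 9.19 in the lung arrays and 6.04 to 6.74 in the liver arrays (10.6-fold, limma adjusted p = 7.92e-07). Importer and enzyme were therefore both far above every liver array. Slc6a4 (Entrez gene 25553), the serotonin transporter, was at least 10.5-fold higher in LMEC_0h (9.65 ± 0.26 against 6.19 ± 0.05, SD, n = 5 each), and the nucleoside transporter Slc29a1 14.3-fold. On the synthesis side, Ptgis, prostacyclin synthase, was 1.91-fold higher in LMEC_0h. Ptgs1, the constitutive cyclooxygenase, read 7.28, 7.46, 7.86, 7.36 and 7.44 in the lung arrays and 9.62, 9.02, 10.26, 9.18 and 8.88 in the liver arrays. It was 3.77-fold higher in LSEC_0h (limma adjusted p = 5.3e-05). The liver arrays ranked alike for Ptgs1 and for Kupffer cell and macrophage markers, with array 15 the highest and array 17 the lowest. The part of those cells in Ptgs1 was not tested. Ptgs2, the inducible cyclooxygenase, read 7.21, 10.45, 8.53, 7.85 and 10.84 in the lung arrays and 5.55 to 5.78 in the liver arrays. It ran from its lowest lung value in array 18 to its highest in arrays 19 and 22, and was at least 6.59-fold higher in LMEC_0h. The thromboxane receptor Tbxa2r was 3.83-fold lower in LMEC_0h.

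**Figure D3:**
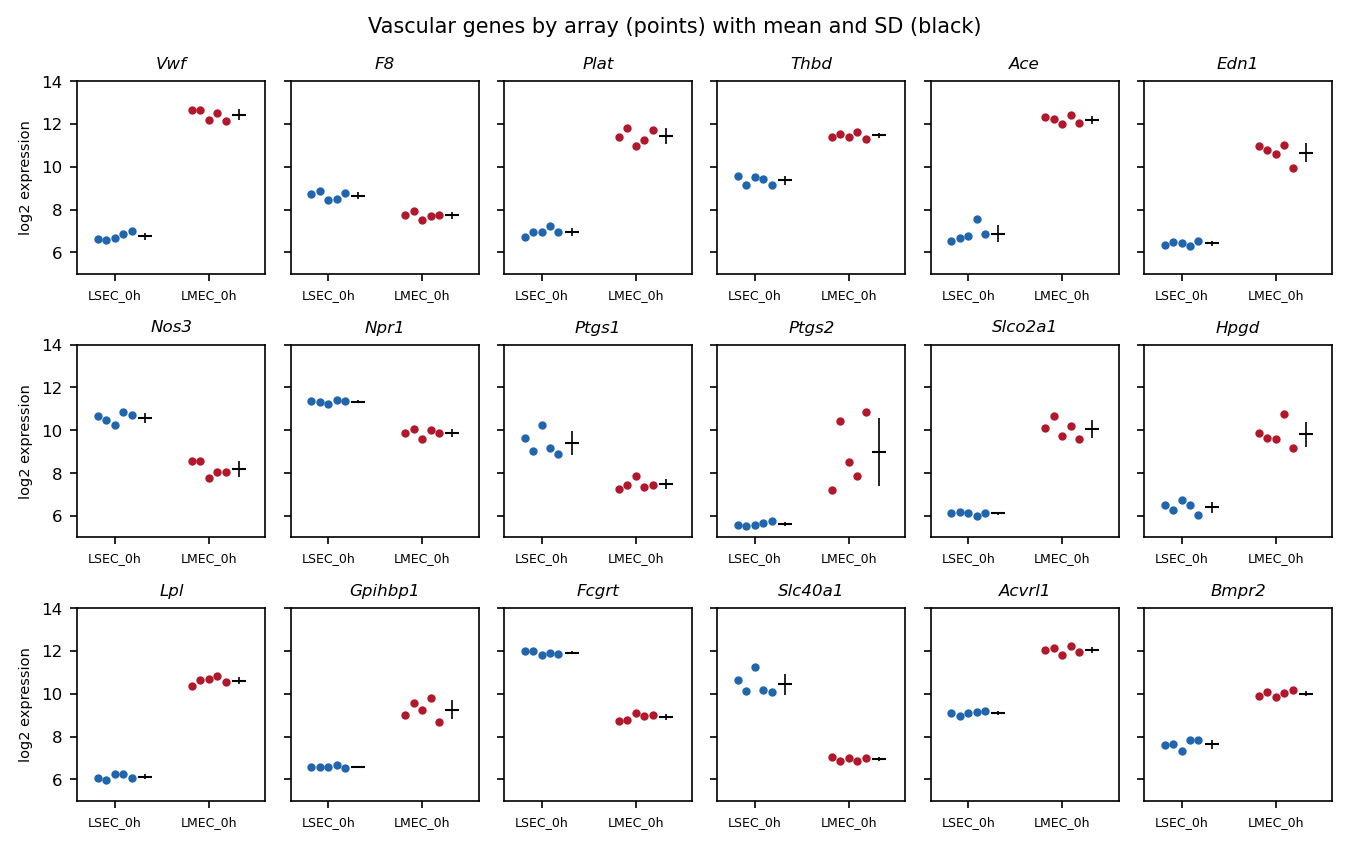
Log2 expression of 18 vascular genes in each LSEC_0h (blue) and LMEC_0h (red) array, with the group mean and SD in black. Vwf and F8, Ptgs2 and Ptgs1, and Npr1 against the lung-high genes stood on opposite sides, and Ptgs2 had the widest spread of the lung arrays, from 7.21 to 10.84.

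Lipid genes were divided, with 7 of 29 higher and 12 lower in LMEC_0h. Lpl (Entrez gene 24539), lipoprotein lipase, read 10.36, 10.64, 10.7, 10.83 and 10.55 in the lung arrays and was at background in the liver arrays at 5.99 to 6.26 (at least 20.5-fold, limma adjusted p = 9.37e-11). Gpihbp1, the endothelial protein that holds Lpl on the capillary wall, was 6.38-fold higher in LMEC_0h, Vldlr, a receptor for triglyceride-rich lipoproteins, at least 2.59-fold, and the phospholipid transfer protein Pltp 3.68-fold. Apoe, the ligand of remnant uptake, was 6.06-fold higher in LSEC_0h at 13.03 ± 0.02, near the highest values of the arrays (13.48 to 13.69), so that its fold may be understated. Lipa, the lysosomal lipase, was 2.26-fold higher in LSEC_0h. Lpl is also known from lung fibroblasts and macrophages, whose part in its level was not tested.

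Iron genes leaned to the liver: 11 of 17 were lower and 2 higher in LMEC_0h, with a median of -0.36. Slc40a1 (Entrez gene 170840), the iron exporter ferroportin, read 10.63, 10.15, 11.24, 10.16 and 10.08 in the liver arrays and 6.85 to 7.07 in the lung arrays (11.3-fold, limma adjusted p = 9.72e-08). Hmox1, which breaks down haem, was 3.19-fold higher in LSEC_0h with overlap, its lung arrays running from 7.83 to 10.28. For both genes array 15 held the highest liver value, for Hmox1 jointly with array 13, and Kupffer cells, which also express both, had their highest marker level in array 15. Their part in either difference was not tested. Hpx, the haem-binding plasma protein made by hepatocytes, was also lower in LMEC_0h. The transferrin receptor Tfrc (1.87-fold) and the ferroxidase Heph (2.18-fold) were the 2 genes higher in LMEC_0h. In the 250 measured solute carriers, 55 were higher and 76 lower in LMEC_0h, with a median of -0.03. The 52.4% called lay near the 49.4% of all genes. Slc43a2, an amino acid transporter, was 7.84-fold higher in LSEC_0h. The neonatal Fc receptor Fcgrt, which salvages IgG and albumin, was 8.03-fold higher in LSEC_0h (11.92 ± 0.08 against 8.91 ± 0.15, SD, n = 5 each, limma adjusted p = 4.39e-10).

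In the BMP and TGF-beta pathway 22 of 42 genes were higher and 9 lower in LMEC_0h. Bmp4 (Entrez gene 25296) read 9.49, 9.81, 9.34, 9.67 and 9.71 in the lung arrays and 6.03 to 6.18, at background, in the liver arrays. Bmp2 (Entrez gene 29373), the closely related ligand that informs hepatocytes of iron stores, read 11.26, 11.31, 11.13, 11.21 and 11.24 in the liver arrays and 7.08, 7.95, 6.97, 7.23 and 7.9 in the lung arrays. The ligands were exchanged between the organs, at least 10.2-fold toward the lung for Bmp4 (limma adjusted p = 1.96e-10) and 14-fold toward the liver for Bmp2 (limma adjusted p = 3.12e-08). Among receptors, Acvrl1 (Entrez gene 25237), the endothelial type I receptor ALK1, was 7.72-fold higher in LMEC_0h, and Bmpr2 (Entrez gene 140590), its type II partner, 5.11-fold. Acvrl1 read 11.82 to 12.22 in the lung arrays and 8.96 to 9.19 in the liver arrays, and Bmpr2 read 9.84 to 10.18 and 7.34 to 7.84. Neither overlapped. Tgfbr3, a co-receptor, was 2.75-fold lower in LMEC_0h. Of the antagonists, Smad6 was 2.1-fold higher in LMEC_0h, the difference of Smad7 was 0.21 on the log2 scale and not called (limma adjusted p = 0.124), but 0.29 and called without LMEC_0h array 22 (limma adjusted p = 0.0337), and the extracellular Nog was 2.39-fold lower. The target genes differed in sign. Id1 was 1.97-fold higher in LMEC_0h with overlap, since lung arrays 19 and 22 read 10.56 and 10.29 and the others 11.62 to 12.21, while Id3 was 2.57-fold lower. Id1 was no longer called by limma without LSEC_0h array 13 or 14 or without LMEC_0h array 18, 20 or 21 (adjusted p of 0.0553 to 0.0612). Ltbp1, which stores latent TGF-beta in matrix, was 6.76-fold higher in LMEC_0h, where the fibroblast markers were higher too.

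VEGF and angiogenesis genes gave 13 higher and 8 lower of 28. Vegfa (Entrez gene 83785) read 10.29, 9.99, 10.36, 10.17 and 9.23 in the lung arrays and 6.36 to 6.52 in the liver arrays (11.9-fold, limma adjusted p = 4.28e-08), and Vegfc was 6.01-fold higher in LMEC_0h. Vegfa is known to be made by alveolar epithelium, whose markers were higher in the same arrays, and that part was not tested. The VEGF-C receptor Flt4 (Entrez gene 114110) read 7.31, 7.82, 7.25, 7.72 and 7.75 in the lung arrays and 11.03, 10.75, 10.12, 10.66 and 10.73 in the liver arrays. It was thus the lymphatic ligand that was higher in the lung and its receptor that was higher in the liver, 8.51-fold (limma adjusted p = 8.06e-08). The co-receptor Nrp2 was 2.19-fold lower in LMEC_0h, and Nrp1 differed by -0.12 (95% interval -0.38 to 0.15) and was not called. The angiopoietin receptor Tek differed by -0.21 (95% interval -0.45 to 0.02) and was not called. Cxcr4, the receptor for Cxcl12, was 9.32-fold higher in LMEC_0h, Cxcl12 itself 2.61-fold, and Esm1, a gene of endothelial tip cells, 4.52-fold.

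Notch and Wnt genes moved in both directions. Of 16 Notch pathway genes 8 were higher and 3 lower in LMEC_0h, and without LSEC_0h array 15 or without LMEC_0h array 18 the first count was 5. The effector Hey2 was at least 2.6-fold and the ligand Jag2 at least 2.5-fold higher in LMEC_0h, Notch1 was 1.67-fold lower, and the ligand Dll4 was not called at -0.35 (95% interval -0.76 to 0.05), though it was at -0.49 without LMEC_0h array 21 (limma adjusted p = 0.0258). Among 30 Wnt genes 11 were higher and 10 lower. The feedback inhibitors Nkd1 (at least 6.87-fold) and Axin2 (at least 2.87-fold), both known as targets of the pathway, were at background in LSEC_0h. Higher in LSEC_0h were the ligand Wnt2 (7.76-fold), the receptors Fzd1 (4.21-fold) and Lgr4 (2.42-fold), the repressor Tcf7l1 (2.24-fold) and Rspo3, the R-spondin of hepatic veins (at least 1.7-fold).

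Of 53 transcription factors of endothelial identity and position, 16 were higher and 18 lower in LMEC_0h. The GATA family was divided. Gata4 (Entrez gene 54254), the master factor of sinusoidal endothelium in the mouse, read 9.88, 9.95, 9.42, 9.31 and 9.96 in the liver arrays and was at background in the lung arrays at 6.15 to 6.22. Gata2 was 2.35-fold, Gata6 at least 2.37-fold and Gata3 1.92-fold higher in LMEC_0h. Their lung arrays spread, Gata2 from 9.28 to 10.58 and Gata6 from 6.86 to 8.07, with array 22 the lowest in each. Other factors higher in LMEC_0h were Tcf21, which is also a fibroblast marker (6.31-fold), the flow-induced Klf4 (4.38-fold), Tbx3 (3.72-fold), Foxp1 (3.41-fold), the oxygen-regulated Epas1 (2.44-fold) and Meox2 (at least 1.66-fold). Klf2, the other flow-induced factor, ran from 9.04 to 11 in the lung arrays and was not called (limma adjusted p = 0.231), while without array 22 its difference was 0.79 and called (limma adjusted p = 0.0185). Toward the liver stood Maf (10.8-fold), Tfec (at least 7.89-fold), the venous factor Nr2f2 (4.83-fold), Hhex (2.13-fold) and Ets1 (2.07-fold). Sox17 and Sox18, which specify arterial and lymphatic endothelium, were not called, at 0.19 (95% interval -0.2 to 0.57) and -0.32 (95% interval -0.8 to 0.15).

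Of 18 HOX genes, which record position along the body, 0 were higher and 8 lower in LMEC_0h. Called members made up 44.4%, against 49.4% of all genes, and 7 members were at background in both groups. The 8 included Hoxc5 (1.16-fold) and Hoxd3 (1.05-fold), which was at background in both groups and overlapped. In the Hoxb cluster all 5 measured genes above background, Hoxb2, Hoxb4, Hoxb5, Hoxb6 and Hoxb7, were lower, and Hoxb8 and Hoxb13 were at background in both groups. Hoxb5 (Entrez gene 497987) read 8.27, 8.35, 8.29, 8.2 and 8.06 in the liver arrays and was at background in the lung arrays at 6.03 to 6.22 (at least 4.07-fold, limma adjusted p = 1.14e-09). Hoxb2 was 2.73-fold, Hoxb4 2.53-fold, Hoxb6 2.17-fold and Hoxb7 1.61-fold higher in LSEC_0h, and the arrays did not overlap for any of the 5. Hoxa5 went the other way without being called: lung arrays 18, 20 and 21 read 9.8 to 10.04 and arrays 19 and 22 read 8.57 and 8.86, against 8.52 to 9.26 in the liver. Without array 19 its difference was 0.80 (limma adjusted p = 0.0191). With array 19 left out, alone or together with array 22, Hoxa5 was the 1 HOX gene called higher in LMEC_0h. Without array 20 there was also 1 HOX gene called higher, which was not Hoxa5. In culture the liver cells read 6.54 for Hoxb5 at 2 h and 8.18 at 42 h. Those arrays also carry added poly-A controls, with probe set means of up to 10.29 at 2 h and 9.97 at 42 h. Whether their values can be set beside the fresh ones was not tested.

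**Figure D4:**
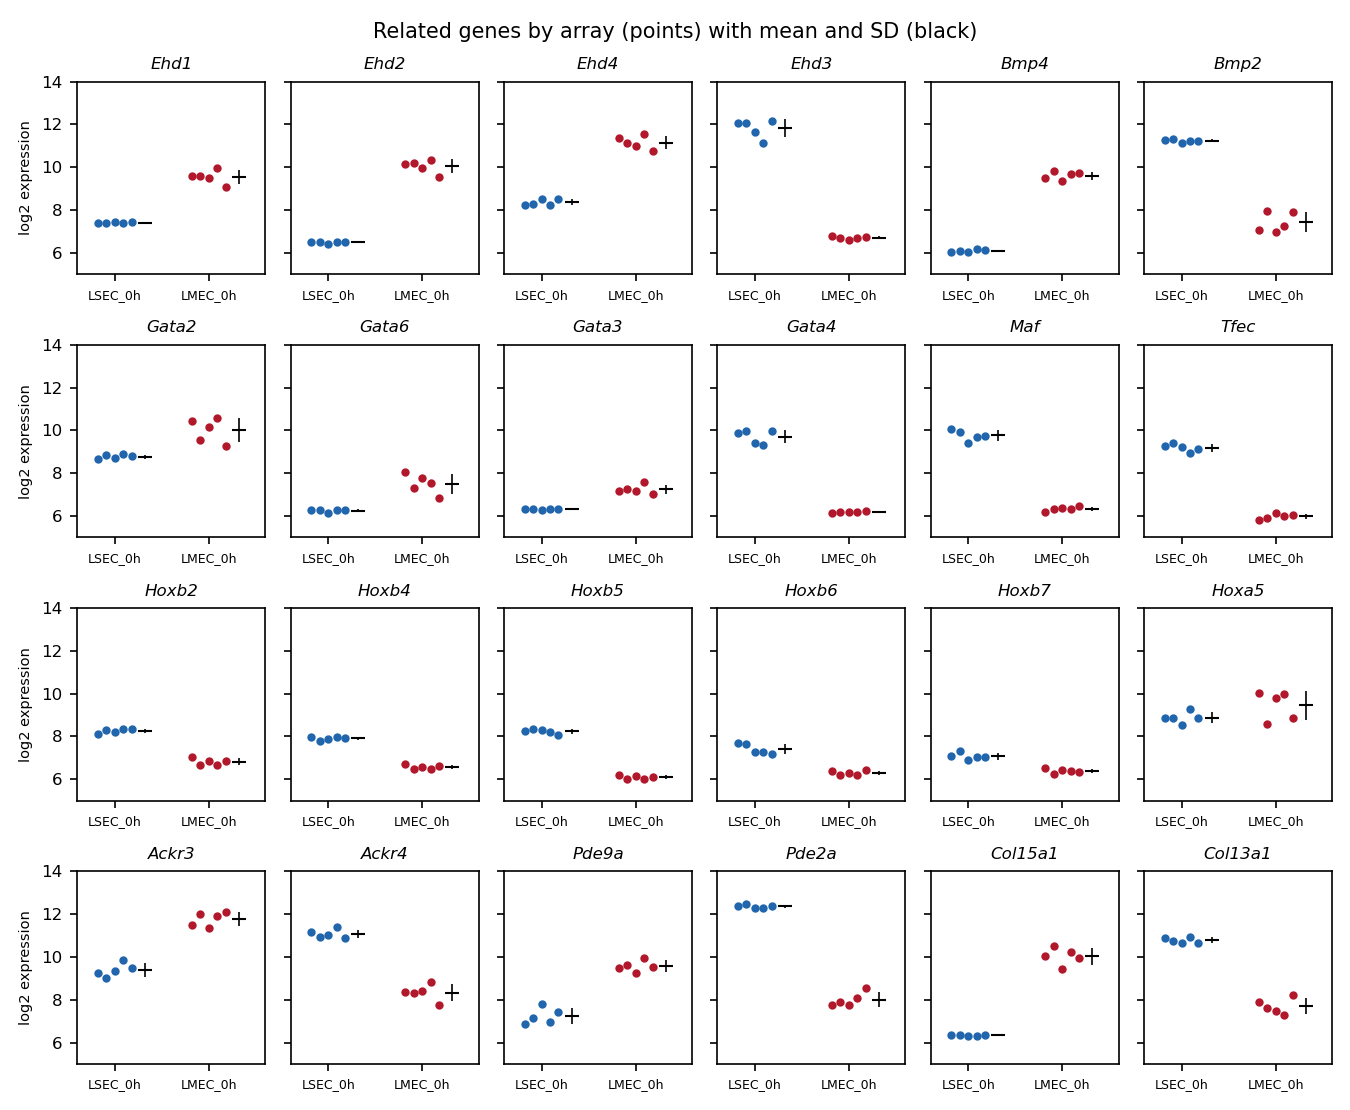
Log2 expression of related genes in each LSEC_0h (blue) and LMEC_0h (red) array, with the group mean and SD in black. Rows show the EHD and BMP genes, GATA and other factors, Hoxb genes with Hoxa5, and pairs of relatives that opposed each other, and the groups overlapped in Hoxa5.

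Genes of endocytosis and recycling leaned to the liver, with 22 of 46 lower and 10 higher in LMEC_0h. All 4 EHD proteins, ATPases that shape endosomes and caveolae, differed. Ehd3 (Entrez gene 192249) read 12.08, 12.07, 11.63, 11.14 and 12.17 in the liver arrays and 6.58 to 6.79 in the lung arrays. Ehd2 (Entrez gene 361512) read 10.16, 10.21, 9.98, 10.34 and 9.53 in the lung arrays and 6.42 to 6.52 in the liver arrays. Ehd2 (11.8-fold), Ehd4 (6.91-fold) and Ehd1 (4.41-fold) were higher in LMEC_0h, and Ehd3 was the lone member higher in LSEC_0h (34.8-fold, limma adjusted p = 1.96e-09). Clathrin coat genes were among those higher in LSEC_0h: the heavy chain Cltc was 2.4-fold higher in LSEC_0h, the AP-2 subunits Ap2a2 and Ap2s1 2.8-fold and 2.43-fold, the accessory protein Eps15 2.15-fold and the AP-1 subunit Ap1b1 12.3-fold. The sorting nexins Snx33 (4.55-fold), Snx5 (4.48-fold) and Snx2 (3.81-fold) were also higher in LSEC_0h. Myo6, the motor that moves toward minus ends and draws vesicles inward, was 3.94-fold higher in LMEC_0h.

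Relatives on opposite sides were found elsewhere. Of 193 name stems with a member at least 4-fold apart, 17 had members at least 4-fold apart on both sides. They included the chemokine scavengers Ackr3 (5.21-fold toward the lung) and Ackr4 (6.71-fold toward the liver), the phosphodiesterases Pde4b and Pde9a (at least 8.44-fold and 5.03-fold toward the lung) and Pde2a (toward the liver), the lysyl oxidases Loxl1 (5.39-fold toward the lung) and Loxl2 (6.95-fold toward the liver), and the collagens Col15a1 (13-fold toward the lung) and Col13a1 (8.47-fold toward the liver). Stems such as Cd, Ccdc and Slc join genes that share only a naming rule. Among 35 genes of cyclic nucleotide signalling 14 were higher and 5 lower in LMEC_0h, and the 54.3% called lay near the 49.4% of all genes. Of 14 genes of sphingosine phosphate and lysophospholipids 4 were higher and 6 lower, with the receptor S1pr1 1.76-fold and the lysophospholipase Enpp2 3.45-fold higher in LMEC_0h. The phosphatases Sgpp1 (6.51-fold) and Plpp3 (5.06-fold) and the receptor Lpar6 (5.35-fold) were higher in LSEC_0h.

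Leukocyte adhesion genes were mostly higher in the lung, 20 of 29, and 4 were lower, with a median of 0.83. Cd200 (Entrez gene 24560), which restrains myeloid cells through Cd200r1, read 9.62, 9.17, 9.15, 9.77 and 9.36 in the lung arrays and 5.75 to 6.23, at background, in the liver arrays (at least 8.92-fold, limma adjusted p = 4.56e-09). Bst1, an ADP-ribosyl cyclase of myeloid and endothelial cells (8.05-fold), the hyaluronan receptor Cd44 (6.34-fold) and Aoc3, an amine oxidase of vessel walls (at least 4.89-fold), had SDs of at most 0.29 over the lung arrays. The selectins and the ligands of leukocyte integrins spread more. Icam1 (Entrez gene 25464) read 11.44, 12.99, 12.17, 11.93 and 12.94 in the lung arrays and 9.31 to 9.83 in the liver arrays (6.57-fold, limma adjusted p = 1.02e-05). Vcam1 read 10.45, 12.11, 10.9, 10.9 and 12.07 against 8.96 to 9.54 (4.27-fold), and Sele, E-selectin, read 7.54, 10.05, 8.13, 8.47 and 9.77 against 5.6 to 5.78 (at least 5.79-fold). Arrays 19 and 22 were the highest of the lung group in these genes, in Selp (10.49 and 10.18, the others 7.98 to 9.09) and in Pvr (10.91 and 10.8, the others 8.7 to 9.1). The lowest lung array of each still lay above all liver arrays. Without arrays 19 and 22 the log2 differences were 2.37 for Sele, 2.19 for Selp, 2.18 for Pvr and 2.23 for Ptgs2, against 3.11, 2.95, 2.95 and 3.35 with all arrays. In liver cells kept for 2 h, which share their control arrays LSEC_0h with the comparison of the organs and whose arrays also carry added poly-A controls, Icam1 read 12.4, Vcam1 11.89, Sele 7.1, Selp 7.7, Pvr 9.96, Ptgs2 9.25 and F3 7.72. All of these means were above those of the fresh liver cells. The junction protein Jam3 (3.41-fold) and Ackr4 were higher in LSEC_0h.

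Chemokines were higher in LMEC_0h in 18 of 29 and lower in 2, and lower in 4 without LMEC_0h arrays 19 and 22. Most leukocyte markers were not called in the main comparison: 8 of 11 for granulocytes and monocytes and 13 of 19 for T, NK and B cells. The 11 measured granulocyte and monocyte markers averaged 6.94 to 8.0 in the lung arrays and 6.36 to 6.72 in the liver arrays, with 2 called higher (Ly6c and Il1b) and 1 lower (Mmp9, at background in both groups), and Camp, Cxcr2 and Ccr2 were at background in both groups. The 19 markers of T, NK and B cells averaged 6.49 to 7.39 and 6.47 to 6.64, with 5 higher and 1 lower. The 5 higher became 3 without LSEC_0h array 13 or 16 and 8 without LMEC_0h array 19, 21 or 22. They became 11 without LMEC_0h arrays 19 and 22 together, 10 with array weights and 2 in a test against a 1.5-fold change. For this list the main count thus depended on the arrays used. The part of these cells was not tested. Ccl21 (Entrez gene 298006), the chemokine of lymphatic endothelium that guides cells through Ccr7, read 8.87, 11.22, 10.1, 11.24 and 11.57 in the lung arrays and was at background in the liver arrays at 6.18 to 6.35 (at least 20.3-fold, limma adjusted p = 9.19e-06). The lymphatic glycoprotein Pdpn, also a marker of alveolar type I cells, was 16.4-fold higher and had its highest value, 12.06, in array 20. Neutrophil chemokines Cxcl1 (4.16-fold) and Cxcl2 (7.3-fold) were lowest in lung array 18, at 9.82 and 8.73. Ccl24, an eosinophil chemokine, was 15.5-fold higher in LSEC_0h. Of the 24 genes of antigen presentation 9 were higher and 2 lower in LMEC_0h, and the 45.8% called lay near the 49.4% of all genes. The count of higher genes was 3 to 5 without LSEC_0h array 14, 16 or 17 or without LMEC_0h array 20 or 21.

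Basement membrane and integrin genes were higher in LMEC_0h in 17 of 32 and lower in 6. Itga3 (Entrez gene 360606), a laminin-binding integrin, read 10.27 to 10.4 in the lung arrays and 7.08 to 7.32 in the liver arrays (8.68-fold, limma adjusted p = 9.37e-11). Sparcl1, an adhesion-modulating matrix protein (14.7-fold), Col15a1, a collagen of continuous basement membranes (13-fold), and the laminin chain Lamb1 (at least 4.14-fold) were higher in LMEC_0h. The perlecan gene Hspg2 (5.41-fold), the integrin Itga9 (3.24-fold), Nid1 (2.38-fold, with overlap) and the laminin chain Lama4 (2.03-fold) were higher in LSEC_0h. Col4a1 and Col4a2, the major type IV collagens, were not called, at 0.11 (95% interval -0.14 to 0.36) and -0.01 (95% interval -0.3 to 0.29). In the glycocalyx list 16 of 30 genes were higher and 7 lower in LMEC_0h. Gpc3, a glypican (at least 10.7-fold), Sdc4, a syndecan (6.29-fold), and the sulphatases Sulf1 (at least 4.09-fold) and Sulf2 (3.64-fold) were higher in LMEC_0h. Hpse (Entrez gene 64537), heparanase, which cleaves heparan sulphate chains, read 10.91, 10.57, 10.61, 11.27 and 11.62 in the liver arrays and 7.69 to 8.26 in the lung arrays (8.03-fold, limma adjusted p = 4.16e-07). Fibroblast and smooth muscle markers were higher in every lung array, and their part in the matrix genes was not tested.

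Lists taken from vessel types of other studies were read as values, not as identities. Of 16 arterial genes 12 were higher and 1 lower in LMEC_0h, with the connexins Gja5 (6.52-fold) and Gja4 (3.38-fold), Sema3g (at least 3.24-fold), Unc5b (2.92-fold) and the elastic fibre gene Fbln5 (at least 7.54-fold). Without LMEC_0h array 21 the second count was 2. Of 15 venous and lymphatic genes 6 were higher and 6 lower. Of 11 genes of mouse aerocytes 6 were higher and 2 lower in LMEC_0h. Car4 (Entrez gene 29242), a carbonic anhydrase on the luminal membrane, read 11.24, 11.07, 10.83, 11.43 and 11.12 in the lung arrays and 6.45 to 6.62 in the liver arrays (24.4-fold, limma adjusted p = 9.37e-11), and Prx was 9.08-fold higher. Cyp4b1 (Entrez gene 24307), on the same list, was 5.26-fold higher in the liver cells (limma adjusted p = 2.43e-06), with 11.61 ± 0.32 there and 9.22 ± 0.4 in the lung cells (SD, n = 5). Of 14 genes of mouse general capillary cells 9 were higher and 2 lower in LMEC_0h, including Plvap, the protein of fenestral and caveolar diaphragms (14.4-fold). Genes that mark positions along the mouse sinusoid were also more often higher in the lung, 6 of 9 for the portal side with 0 lower, and 6 of 10 for the hepatic vein side with 4 lower. Without LSEC_0h array 15 or LMEC_0h array 20 or 21, 1 portal gene was lower. Among 48 channel and connexin genes 20 were higher and 7 lower in LMEC_0h, so that 56.2% were called, against 49.4% of all genes. The potassium channel Kcnk2 was at least 3.65-fold higher and Kcnj8, which is also a pericyte marker, 4.26-fold lower.

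Several metabolic families were more often lower in the lung cells. Of 47 cytochromes P450 4 were higher and 22 lower in LMEC_0h, and of 33 serpins 6 were higher and 18 lower, with many hepatocyte genes among them. Called P450 genes made up 55.3%, against 49.4% of all genes. Serpinb9, the granzyme B inhibitor, which is not a hepatocyte marker, was 4.97-fold higher in LSEC_0h (12.16 ± 0.12 against 9.84 ± 0.38, SD, n = 5 each). Of 14 cathepsins 2 were higher and 7 lower, the first count being 1 without LSEC_0h array 14, 16 or 17 or LMEC_0h array 18 or 20. The bone-resorbing protease Ctsk was 9.3-fold higher in LSEC_0h. Retinoid genes gave 5 higher and 9 lower of 23. Aldh1a1, which makes retinoic acid, was 9.02-fold higher in LMEC_0h (9.52 ± 0.29 against 6.35 ± 0.54, SD, n = 5 each, limma adjusted p = 1.03e-06), and Dhrs3, which returns retinal to retinol, was 2.58-fold higher in LSEC_0h. Cyp1a1, the target of the aryl hydrocarbon receptor, was at least 5.47-fold higher in LMEC_0h and spread from 6.84 in array 20 to 10.18 in array 22, and without arrays 19 and 22 its log2 difference was 1.72 in place of 2.58.

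**Figure D5:**
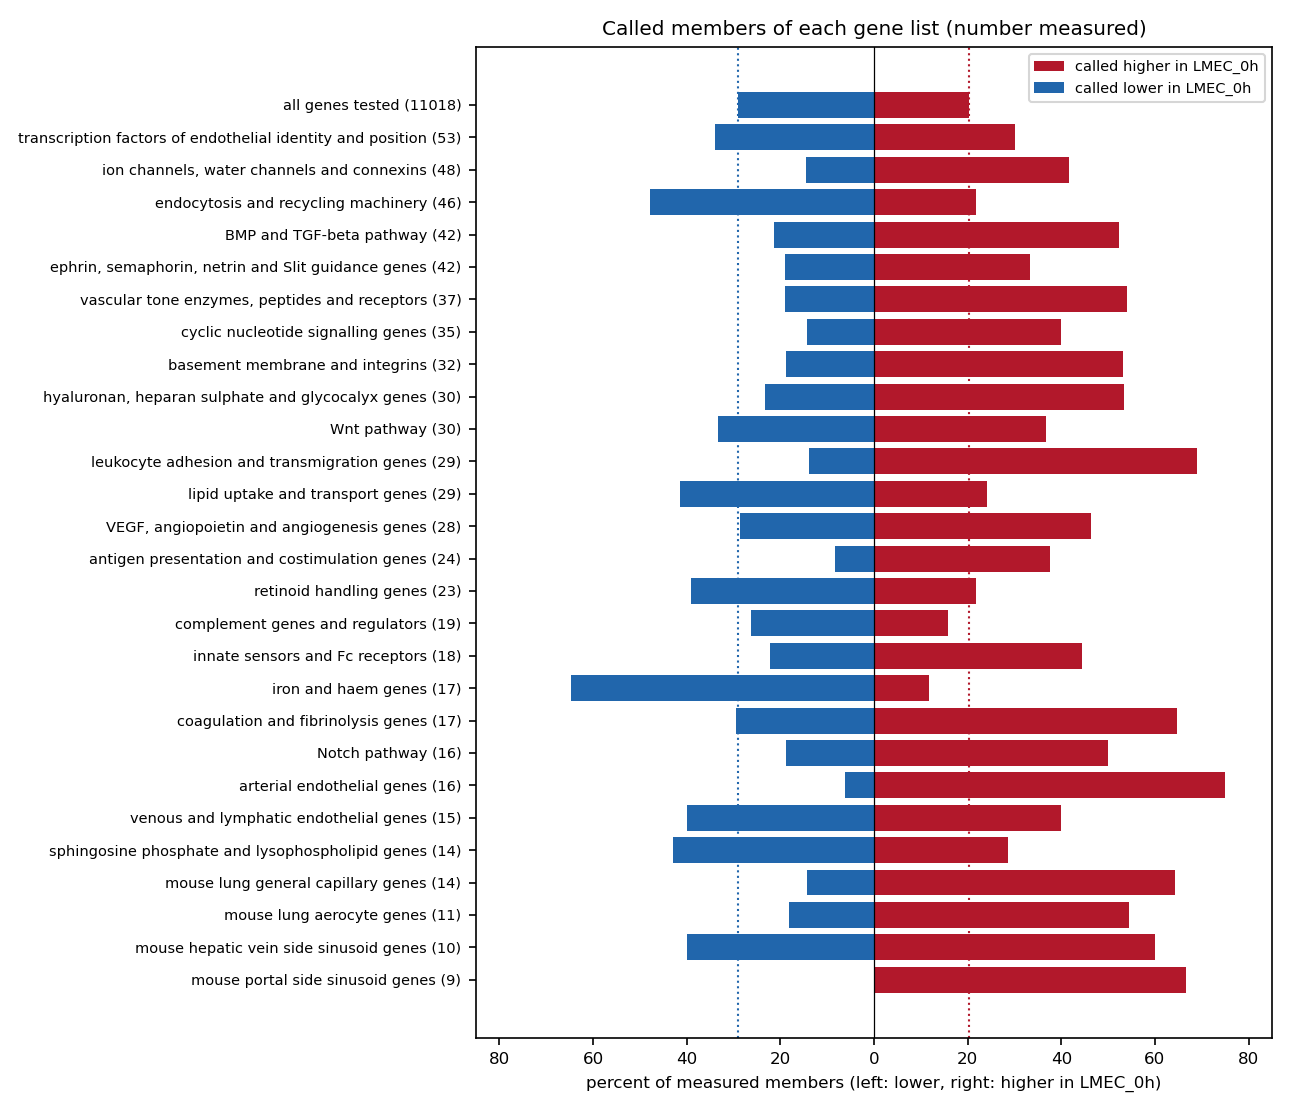
Percent of the measured members of each gene list called higher (red, right) or lower (blue, left) in LMEC_0h, with the number measured in brackets. Dotted lines mark the shares of all genes tested, 20.3% higher and 29.1% lower.

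Many transcripts were at like levels. Among 839 genes with both means in the highest 10% of gene means, 448 were called, and for 488 the 95% interval of the difference lay within 1.5-fold in either direction. The 15 with the smallest differences included the ubiquitin ligase subunit Anapc5, the GTPase Arf1, the collagen Col4a2, the unfolded protein response factor Xbp1 and the adaptor Ywhah. Anapc5 read 9.9 to 10.01 in the lung arrays and 9.91 to 10.02 in the liver arrays. Its difference was 0 with a 95% interval of -0.12 to 0.13, and that of Xbp1 had an interval of -0.31 to 0.31.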

How the data were processed

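Gene expression of 10 arrays of freshly isolated rat endothelial cells was compared. Values are log2 expression per probe set as deposited in the authors' series matrix. How the arrays were normalized is not given in the sources used here. RNA was purified with RNeasy columns and labelled as biotinylated cRNA, per the labels' protocols. Of 11484 probe sets, 57 were controls and 409 had no gene symbol, which left 11018 genes, each named through the platform annotation, with 1 probe set a gene. A linear model with 1 mean per group was fitted to the 10 arrays with limma 3.58.1 in R 4.3.3 (eBayes with an intensity trend, Benjamini-Hochberg adjustment over all genes, threshold 0.05), without a filter. Files were read with the R package data.table, version 1.17.8, and sums, lists and figures were made in Python 3.11.15 with pandas 2.3.3, numpy 2.4.6 and scipy 1.17.1.

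Members and lists were chosen with earlier results of these data known. Named genes were the 25 largest differences per direction among called genes whose arrays did not overlap and whose higher mean exceeded the median of all probe sets, 7.16, called members of large difference in each list, all EHD genes and the 15 most alike genes. Some members were named for their role, with their values known. On 10 simulated data sets of 11018 genes with 200 changed, the comparison of LMEC_0h with LSEC_0h recovered 82% of 1.5-fold and 95.3% of 2-fold changes, with 4.93% false calls. The simulations changed far fewer genes than were called here. They drew genes independently, with the same spread in both groups, so these shares need not carry over to the data. Alternatives were quantile normalization, median centring, a filter on dim genes, all 18 arrays, other prior variances, array weights, all gene probe sets, arrays left out and a limma test against a fold of 1.5. Promoters came from RefSeq (GRCr8) for 9060 genes, and those printed were matched by gene ID. Arrays give no read depth, and their number limits the precision.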

Additional observations from a re-analysis of the deposited data

Results flagged for a closer look

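In 6 of the 66 groups of 5 arrays tested, 1 array stood apart from the other arrays of its group, with a gap to its neighbour over 0.71 of the range of the group. Chance flags about 1 in 20 groups. LMEC_0h array 20 had a mean of 8.0 for granulocyte and monocyte markers, where the other lung arrays had 6.94 to 7.09, and a mean of 8.39 for mesothelial markers, where they had 6.83 to 7.22. The 3′ Actb control exceeded the 5′ control by 1.34 in LMEC_0h array 22 and by 1.28 in LSEC_0h array 16, in which the same measure for Gapdh was 0.84. Scn7a, a sodium channel gene higher in LMEC_0h, read 6.11 in LSEC_0h array 17, which is within the level of the absent controls. The part of these arrays in the other results was not tested beyond leaving them out.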

How the results depend on the processing

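No paired analysis was made, because the labels do not say whether arrays of LMEC_0h and LSEC_0h came from the same animals. The replicate numbers run on through the series and cannot show a pairing. With 1 array left out, 4877 to 5542 genes were called, 1991 to 2279 of them higher and 2879 to 3263 lower in LMEC_0h, and at least 2-fold differences numbered 622 to 669 higher and 435 to 455 lower. Quantile normalization gave 5598 called genes, median centring 5250, all 18 arrays 5235, no intensity trend 5373, a robust prior 5438, array weights 5928 and all gene probe sets 5639. Leaving out LMEC_0h arrays 19 and 22 together gave 5590, and leaving out LSEC_0h array 15 with LMEC_0h array 20 gave 5008. With dim genes left out, which keeps 6054 genes, 1482 were higher in LMEC_0h. A test against a 1.5-fold change, by construction stricter, called 1076 genes, 598 higher and 478 lower. Of 209 named genes checked, 16 lost their call in this limma test. They included Hmox1 (adjusted p = 0.11), Epas1 (0.178), Gata2 (0.0701), Nid1 (0.258), Gch1 (0.341), Smad6 (0.246) and Nkx2-1 (0.0559). No gene called both in the main comparison and under any of these alternatives changed direction. Under array weights Hoxa5 (0.81), Klf2 (0.81) and Smad7 (0.29) were called, under quantile normalization Tek (-0.30), and without LMEC_0h arrays 19 and 22 Hoxa5 (1.07 in place of 0.58), Klf2 (1.02 in place of 0.50), Smad7 (0.38 in place of 0.21) and Helz2 (-0.36). The cause was not tested. Genes at the level of the absent controls have folds that are bounds only.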

Other observations

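Some genes varied within a group as much as others did between the organs. Ifit1, an interferon-induced gene, read 8.68, 11.21, 7.87, 6.42 and 10.29 in LMEC_0h arrays 18 to 22 and 9.3, 10.03, 10.89, 6.37 and 6.43 in LSEC_0h arrays 13 to 17. Both groups thus held arrays near background and arrays far above it. RT1-A2, a class I histocompatibility gene, read 6.48 in LMEC_0h array 22 and 10.69 to 11.87 in the other lung arrays. RT1-Ba, a class II gene, spread from 7.15 in LSEC_0h array 17 to 10.82 in array 15. Il6, the cytokine interleukin 6, read 7.95, 10.74, 9.35, 9 and 11 in the lung arrays and 5.73 to 5.93 in the liver arrays.

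Of the 25 most variable genes among the lung arrays, 11 were highest in array 22, 9 in array 20 and 5 in array 19, and of the 25 among the liver arrays 20 were highest in array 15. S100a9, a granulocyte protein, read 10.3 in lung array 20 and 6.26 to 6.7 in the other lung arrays.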
